A study of Arabidopsis with 12 samples.

Results

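Tryptophan synthesis and the conversion of tryptophan to camalexin were followed through 10 genes of the 27371 in the FPKM table. The genes were taken by locus identifier from the known pathway, and all 10 were found: *ASA1*, *ASB1*, *IGPS*, *TSA1* and *TSB1* of tryptophan synthesis, and *CYP71A12*, *CYP71A13*, *GGP1*, *PAD3* and *CYP82C2* of the indolic steps after tryptophan. RNA came from whole seedlings, 14 days old, of the WT Col-0 and of 1 mutant line, *wlim2a-1*, a CRISPR-Cas9 line in Col-0 with a small insertion in *WLIM2A*, selected to be free of Cas9. The elicitor was flg22, a bacterial flagellin peptide, at 1 µM for 1 h, and mock seedlings received water. Plants of all groups had spent the night before in liquid medium. Each genotype was sampled under both treatments, with 3 biological replicates per condition and 12 samples in all.

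Plants make tryptophan in the plastid from chorismate, the end product of the shikimate pathway. Anthranilate synthase, which tryptophan itself inhibits, takes chorismate into this branch, and tryptophan synthase closes it by joining indole to serine. In *Arabidopsis* and its relatives, cytochromes P450 turn tryptophan into indole-3-acetaldoxime, from which indole glucosinolates, the phytoalexin camalexin and the hydroxylated cyanogenic compound 4-hydroxyindole-3-carbonyl nitrile are made. Camalexin production is known to follow recognition of pathogens and is controlled in part by MAPKs and the transcription factor WRKY33.

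The authors had combined the replicates, so each gene had 1 FPKM value (fragments scaled to transcript length and to a total) for each condition. The methods name both mapped reads and quartile normalization, so which total was used is not known. No SD, confidence interval or test can be attached to any value or difference. Whether a difference was carried by 1 replicate or by all 3 is not known. Differences were taken on the scale of log2(FPKM + 1), and at least 2-fold on FPKM + 1 was counted as higher or lower. The added 1 shrinks the differences of weakly expressed genes. The reference for each count is the share of the 19323 genes with at least 1 FPKM in at least 1 condition that passed the same limit. Between 4249 and 4602 loci per condition were listed at 0, and 1 locus, AT2G01021, took between 28.9% and 67.4% of the summed FPKM. Upper quartiles of the compared genes lay between 20.0 and 21.3 FPKM. *WLIM2A* itself had between 6.20 and 12.6 FPKM, which does not check the genotype because an insertion leaves the transcript countable.

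All 10 genes had their lowest value in WT mock, the case for 17.7% of all compared genes. In 9 of the 10 the highest value was in *wlim2a-1* flg22, against 18.3% of all compared genes. For 8 of the 10 mock values lay below flg22 values, with *wlim2a-1* above WT in each treatment, an order that 5.38% of all compared genes had. *IGPS* and *CYP71A13* were the exceptions to this order. *CYP82C2* reached 1 FPKM only in *wlim2a-1* flg22, so that its highest value lay there was given by the FPKM minimum. *CYP71A13* reached it only in *wlim2a-1*, so its lowest value had to be in WT. These genes add nothing to those counts. Since there was no spread between replicates, it is not known which neighbors in the order differ, and the values of *CYP82C2* in the mock conditions were practically equal. Levels, which FPKM gives per transcript length, ranged widely. In *wlim2a-1* flg22, *TSB1* was above 98.5% of the compared genes, *GGP1* above 96.5% and *CYP71A13* above only 8.28%.

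**Figure D1:**
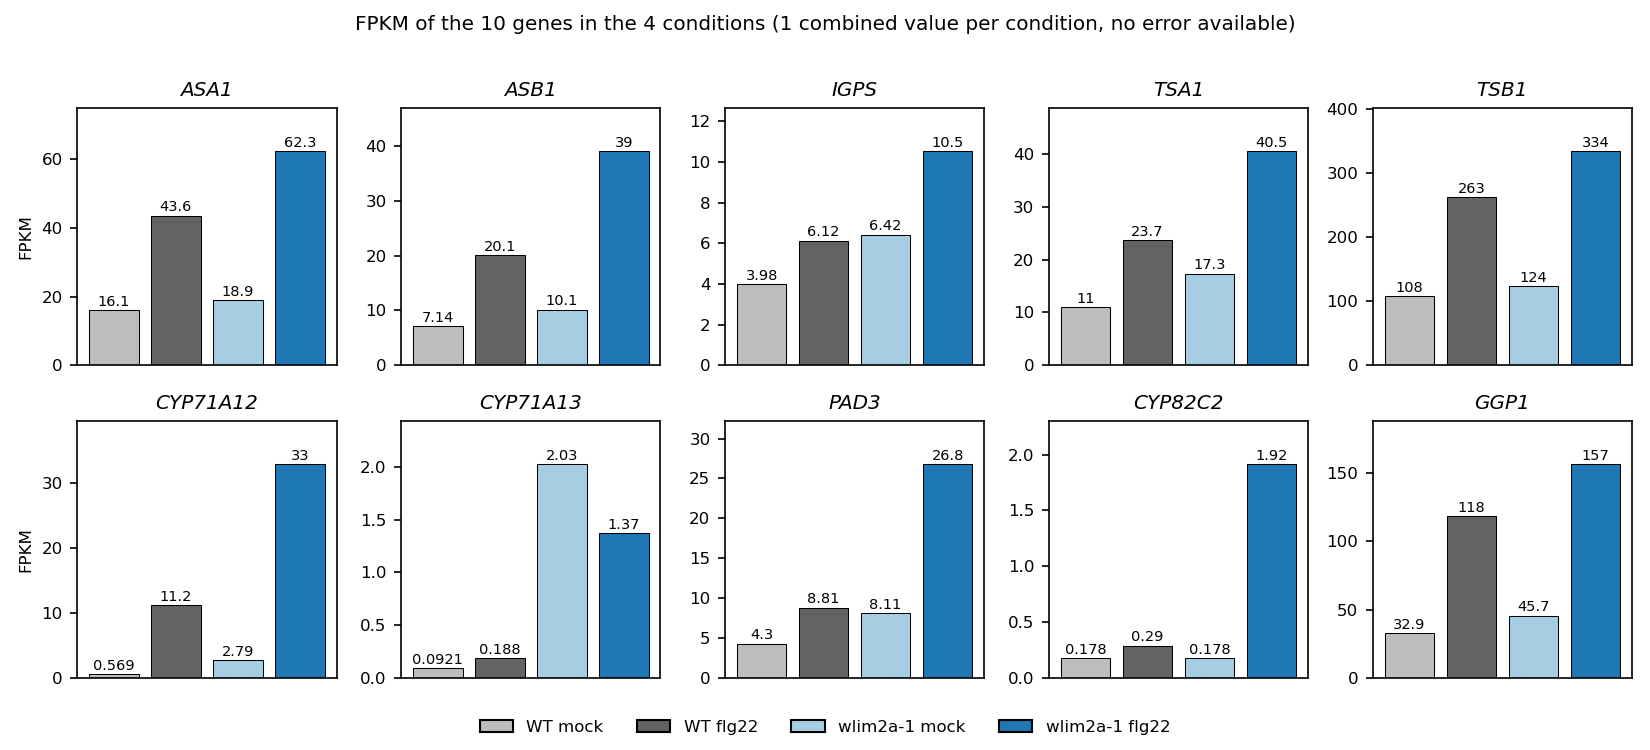
FPKM (vertical axis of each panel, linear and starting at 0) of the 10 genes in both genotypes and treatments. Each bar is the 1 combined value of a condition, so there are no error bars. WT mock has the lowest value in all 10 panels, though for *CYP82C2* the bars of both mock conditions are practically equal. The highest bar is *wlim2a-1* flg22 in 9 panels, with *CYP71A13* as the exception.

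Anthranilate synthase opens the pathway. *ASA1* (AT5G05730, chromosome 5), its α subunit, which carries out the chorismate reaction, had 16.1 (mock) and 43.6 FPKM (flg22) in WT, and 18.9 and 62.3 in *wlim2a-1*. Both flg22 values were more than 2-fold above both mock values. *ASB1* (AT1G25220, chromosome 1), the β subunit that supplies ammonia from glutamine, had 7.14, 20.1, 10.1 and 39.0 FPKM in the same order of conditions. Here the flg22 values were also clear of the mock values, and *wlim2a-1* flg22 was 1.95 times WT flg22. Reads of *ASB1* may be shared with close copies. *ASB2* (AT5G57890) stayed between 5.36 and 6.38 FPKM, and 4 further loci, AT1G24807, AT1G24909, AT1G25083 and AT1G25155, had at most 1.13 FPKM. With all 6 loci summed, the values were 14.2, 26.9, 16.5 and 47.6 FPKM, and the log2 difference with flg22 in WT went from 1.37 to 0.88, below 2-fold.

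*IGPS* (AT2G04400, chromosome 2) encodes indole-3-glycerol phosphate synthase, which closes the indole ring. It had 3.98 (mock) and 6.12 FPKM (flg22) in WT, and 6.42 and 10.5 in *wlim2a-1*. It was the 1 gene of the 10 that passed 2-fold in none of the comparisons, although its log2 differences between genotypes and between treatments were positive, from 0.52 to 0.69. *TSA1* (AT3G54640, chromosome 3), the tryptophan synthase α subunit that releases indole, had 11.03, 23.7, 17.3 and 40.5 FPKM. Its rise with flg22 in WT was close to the limit, at 1.04 on the log2 scale, and was 0.97 with equal upper quartiles.

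*TSB1* (AT5G54810, chromosome 5) encodes the β subunit, which joins indole to serine, and was the most highly expressed of the 10 genes in each condition. It had 108 (mock) and 263 FPKM (flg22) in WT, and 124 and 334 in *wlim2a-1*. Both flg22 values were more than 2-fold above both mock values, and the genotypes differed less than in any other of the 5 tryptophan genes. Its close copy *TSB2* (AT4G27070) had between 3.66 and 4.95 FPKM, too little to move the *TSB1* values when summed with them.

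Turning to the enzymes after tryptophan, *CYP71A12* (AT2G30750, chromosome 2) encodes a cytochrome P450 that acts on indole-3-acetaldoxime and had the widest range of the 10 genes. It was at 0.57 (mock) and 11.2 FPKM (flg22) in WT, and 2.79 and 33.0 in *wlim2a-1*, so that the highest value was 57.9 times the lowest. Both treatments had the higher value in *wlim2a-1*. *CYP71A13* (AT2G30770), the related P450 known for the dehydration of indole-3-acetaldoxime to indole-3-acetonitrile in camalexin synthesis, lies nearby, with 2 annotated genes between them. It had only 0.09 (mock) and 0.19 FPKM (flg22) in WT, and 2.03 and 1.37 in *wlim2a-1*. The values in *wlim2a-1* were above those in WT in both treatments, and flg22 went with a slightly higher value in WT and a lower one in *wlim2a-1*. The 2 genes are similar in sequence and can share reads, so their separate values are uncertain. Their sum was 0.66, 11.4, 4.81 and 34.3 FPKM.

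*GGP1* (AT4G30530, chromosome 4) encodes a γ-glutamyl peptidase that trims the glutathione conjugates formed in camalexin and glucosinolate synthesis. It had 32.9 (mock) and 118 FPKM (flg22) in WT, and 45.7 and 157 in *wlim2a-1*. The flg22 values stood well above the mock values in both genotypes. Its relative *GGP3*, separated from it by 1 annotated gene, stayed between 36.3 and 41.2 FPKM.

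*PAD3* (AT3G26830, chromosome 3) encodes CYP71B15, the P450 that forms camalexin in the last steps of the pathway. It had 4.30 (mock) and 8.81 FPKM (flg22) in WT, and 8.11 and 26.8 in *wlim2a-1*. WT flg22 and *wlim2a-1* mock were therefore nearly level, and *wlim2a-1* flg22 stood 3.04 times above WT flg22. *CYP82C2* (AT4G31970, chromosome 4) encodes the P450 that hydroxylates indole-3-carbonyl nitrile. It had 0.18 FPKM in both mock conditions, 0.29 in WT flg22 and 1.92 in *wlim2a-1* flg22. It therefore reached 1 FPKM in *wlim2a-1* flg22 only, and *CYP71A13* reached it in the *wlim2a-1* conditions only, so that both entered the comparison through conditions in which they were high.

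The comparisons share their conditions, so they are not independent of each other. Comparing flg22 with mock in WT, 6 of the 10 genes were at least 2-fold higher and none was lower, where 4.47% of all compared genes were higher and 0.471% lower. In *wlim2a-1*, 8 of the 10 were at least 2-fold higher and none was lower, where 5.53% of all compared genes were higher and 4.25% lower. Among genes with a mean of at least 10 FPKM, 6.82% were higher in WT and 7.7% in *wlim2a-1*. The 10 genes had median log2 differences of 1.15 (WT) and 1.52 (*wlim2a-1*), beside −0.05 and −0.09 for all compared genes. Among the 5 tryptophan genes the medians were 1.27 and 1.42, with 4 genes past 2-fold in each genotype. Among the 5 later enzymes they were 0.89 and 1.61, with 2 genes past 2-fold in WT, *CYP71A12* and *GGP1*, and 4 in *wlim2a-1*, where *PAD3* and *CYP82C2* were added.

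The largest response was that of *CYP71A12*, with log2 differences of 2.96 in WT and 3.17 in *wlim2a-1*, followed in WT by *GGP1* with 1.82. Without the added 1 the order of the genotypes was reversed, as the FPKM ratio of *CYP71A12* was 19.7 in WT and 11.8 in *wlim2a-1*. *PAD3* stayed under 2-fold on FPKM + 1 in WT, at 0.89, though its FPKM ratio was 2.05. In *wlim2a-1* it reached 1.61. Left to the 8 genes with at least 1 FPKM in WT, the counts were 6 of 8 in WT and 7 of 8 in *wlim2a-1*. Scaled to *ACT2* and *UBQ10*, 2 of the 10 were at least 2-fold higher in WT, where 2.57% of all compared genes were, and 6 in *wlim2a-1*, where 2.86% were higher and 21.2% lower. *UBQ10* itself was higher with flg22, at 1008 (mock) and 1660 FPKM (flg22) in WT, and 994 and 1602 in *wlim2a-1*. *ACT2* was also higher with flg22, at 376 and 419 FPKM in WT, and 292 and 402 in *wlim2a-1*. This scaling therefore lowered flg22 against mock for every gene expressed in both, and moved the median of all genes to −0.54 and −0.63.

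**Figure D2:**
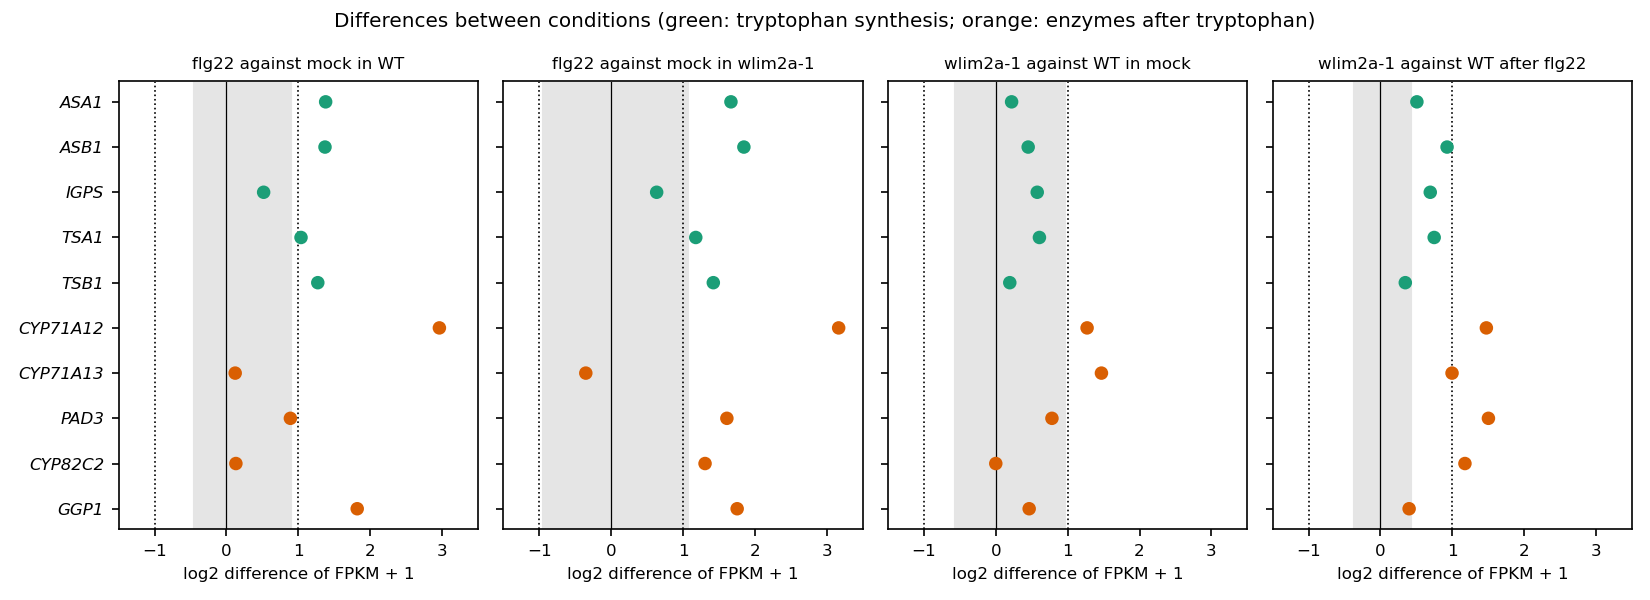
Log2 difference of FPKM + 1 (horizontal axis) of each of the 10 genes (rows) for flg22 against mock within each genotype and for *wlim2a-1* against WT within each treatment. Green points are genes of tryptophan synthesis, orange points later enzymes, the grey band spans the 5th to 95th percentile of all compared genes, and dotted lines mark 2-fold. In the comparison after flg22 all 10 points lie to the right of 0, with *PAD3*, *CYP71A12* and *CYP82C2* past the dotted line.

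Between the genotypes in mock, *CYP71A12* and *CYP71A13* passed 2-fold upward in *wlim2a-1*, and none of the 10 was lower, where 4.48% of all compared genes were higher and 0.611% lower. Their log2 differences were 1.27 and 1.47. The other 8 were below 2-fold, with *PAD3* at 0.78, *TSA1* at 0.61 and *CYP82C2* at 0, and the median of the 10 was 0.52 beside 0.01 for all compared genes. The tryptophan genes had a median of 0.45 and the later enzymes one of 0.78. Both genes past the limit had under 3 FPKM in *wlim2a-1* mock, and neither passed it with a pseudocount of 5, at 0.48 and 0.46. Of the 8 genes with at least 1 FPKM in WT, which leaves out *CYP71A13*, 1 passed 2-fold.

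After flg22, *PAD3*, *CYP71A12* and *CYP82C2* exceeded their WT values at least 2-fold in *wlim2a-1*, and none of the 10 was lower, where 1.16% of all compared genes were higher and 0.352% lower. These log2 differences, 1.5 for *PAD3*, 1.47 for *CYP71A12* and 1.18 for *CYP82C2*, lay above those of 99.4% of the compared genes for *PAD3* and *CYP71A12* and of 99.2% for *CYP82C2*. *CYP71A13*, at 0.996, and *ASB1*, at 0.93, lay just under the limit. *TSA1* followed with 0.75, *IGPS* with 0.69, *ASA1* with 0.51, *GGP1* with 0.40 and *TSB1* with 0.35. The lowest of these was still above the values of 92.7% of the compared genes. The median was 0.84 for the 10 genes and −0.02 for all compared genes, with 0.69 for the tryptophan genes and 1.18 for the later enzymes. Without *CYP71A13* and *CYP82C2*, 2 of the remaining 8 passed 2-fold and the median was 0.72. When all conditions were brought to the same FPKM sum without AT2G01021, 5 of the 10 passed it, as *ASB1* came to 1.09 and *CYP71A13* to 1.07, where 1.55% of all compared genes were higher. This scaling moved the median of all genes to 0.13.

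Seedlings are a mix of organs, and in such bulk RNA fewer cells of a type and less RNA per cell cannot be told apart. A list of 10 root genes of root hairs and endodermis summed to 140 (mock) and 142 FPKM (flg22) in WT, and 91.7 and 120 in *wlim2a-1*. All 10 root genes were lower in *wlim2a-1* in mock and 9 of 10 were lower after flg22, with medians of −0.57 and −0.26, and none passed 2-fold. Among 5 genes of green tissue, *RBCS1A* and *LHCB1.3* were listed at 0 in both WT conditions although every green cell uses them, and were not read. The other 3 summed to between 2912 FPKM in *wlim2a-1* flg22 and 4369 in WT flg22. The part of this tissue mix in the differences of the 10 genes was not tested.

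**Figure D3:**
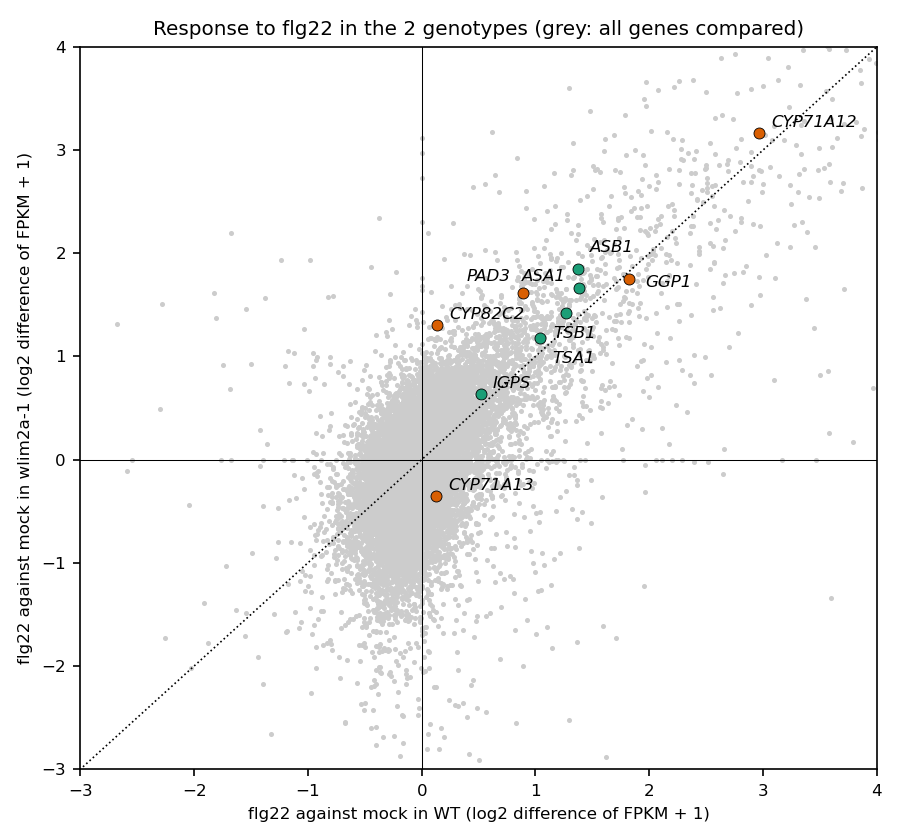
Log2 difference of FPKM + 1 between flg22 and mock, for WT on the horizontal and *wlim2a-1* on the vertical axis. Grey points are all compared genes within the axes, green points tryptophan genes, orange points later enzymes, and the dotted line marks equal responses. *CYP82C2* stands farthest above the line, at 0.13 in WT and 1.31 in *wlim2a-1*, while *CYP71A13* lies below it.

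The response to flg22 differed between the genotypes by at least 1 on the log2 scale for 1 of the 10 genes, *CYP82C2*, with a higher response in *wlim2a-1* by 1.18, and such a higher response was found for 1.46% of all compared genes and a lower one for 3.7%. This gene reached 1 FPKM only in *wlim2a-1* flg22, and of the 8 genes with at least 1 FPKM in WT, 0 differed by that much. *PAD3* came next with 0.72, above 96.6% of the compared genes. *ASB1* had 0.48 and *ASA1* had 0.29. *TSB1*, *TSA1*, *IGPS* and *CYP71A12* had between 0.12 and 0.20, and *GGP1* had −0.07. The sign for *CYP71A12* depended on the pseudocount, with −0.56 at 0.1. *CYP71A13* was lowest with −0.47. These differences could not be tested with 1 value per condition.

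Near *CYP82C2* on chromosome 4 lies its relative *CYP82C3* (AT4G31950), a gene looked up after the values of *CYP82C2* were seen. It was at 0.02 (mock) and 11.1 FPKM (flg22) in WT, and in *wlim2a-1* was listed at 0 in mock and had 33.4 with flg22. Most of the signal of the pair thus lay in *CYP82C3*, and reads could be split between the 2 genes. Their sum was 0.20 (mock) and 11.4 FPKM (flg22) in WT, and 0.18 and 35.3 in *wlim2a-1*. On this sum the log2 difference with flg22 in WT was 3.37 instead of 0.13, whereas that between the genotypes after flg22 was 1.55 instead of 1.18.

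Among the 10 genes, the profiles over the 4 conditions were most alike for *ASA1* and *TSB1*. Their log2(FPKM + 1) values, each centered on its mean, differed by a root mean square of 0.11. *ASA1* differed from *GGP1* by 0.16 and from *ASB1* by 0.17, while *CYP71A12* and *CYP71A13* were the least alike, at 1.60. This last pair can share reads, and the profile of the weak *CYP71A13* depends on the added 1. Among 13851 genes with at least 5 FPKM in at least 1 condition, the 3 nearest to *ASA1* were AT2G25460, AT5G49700 and *WRKY11*, a WRKY transcription factor, at 0.03 to 0.06. Nearest to *GGP1* were *NAC102*, *RBOHD*, the NADPH oxidase of the immune oxidative burst, and *BPS3*, at 0.05 to 0.06. The profile of *TSA1* was closest to *HR3*, AT5G44820 and the nitrate transporter *NRT1.8*, at 0.02 to 0.06, and that of *ASB1* to *YLS5*, *ARL* and *RLP30*, at 0.10 to 0.12. For *TSB1* these were AT3G28850, AT3G47540 and AT1G66500, at 0.05 to 0.06. The genes nearest to *PAD3*, AT4G10265, AT5G05190 and AT2G39520, were less close, at 0.14 to 0.18. *CYP71A12* had AT3G22060, *CYP81D8* and AT1G57630, at 0.12 to 0.20. *CYP82C2* had AT1G65500, *PDF1.4* and *VTC5*, at 0.12 to 0.16, and *CYP71A13* had AT5G04238, *GRP3S* and AT5G08760, at 0.10 to 0.12. With 4 conditions many genes share such a profile, and nearness is a description only.

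Around the 10 genes, 44 further genes of the pathway were compared in 6 lists, of which 43 reached 1 FPKM. None of the 9 genes of chorismate supply and none of the 10 other tryptophan genes passed 2-fold in any comparison. Below that limit, 8 of the 9 chorismate supply genes were higher in *wlim2a-1* in mock and 8 after flg22. Of all compared genes, 51.0% and 46.8% were. Their log2 differences ran from −0.17 to 0.81 in mock and from −0.11 to 0.54 after flg22, with medians of 0.18 and 0.18. Those of the other tryptophan genes ran from −0.27 to 0.53 and from −0.28 to 0.52, with medians of 0.09 and −0.01. With flg22 the other tryptophan genes had log2 differences between −0.22 and 0.11 in WT and between −0.76 and 0.29 in *wlim2a-1*. *ASA2*, the second α subunit gene, had 8.01 (mock) and 8.75 FPKM (flg22) in WT, and 11.4 and 7.04 in *wlim2a-1*, without the rise seen for *ASA1*. *PAT1*, which encodes the enzyme that follows anthranilate synthase, stayed between 11.7 and 17.5 FPKM. *DHS1*, which encodes an isoform of the first shikimate pathway enzyme, had 51.2, 65.9, 45.5 and 76.0 FPKM. The 5 compared genes of enzymes that compete for chorismate, among them *CM1* of phenylalanine and tyrosine synthesis and *ICS1* of salicylic acid synthesis, also had none past 2-fold.

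Among 10 other indolic enzymes, 4 were at least 2-fold higher with flg22 in each genotype and none was lower. Of all compared genes, 4.47% (WT) and 5.53% (*wlim2a-1*) were higher. The medians of the list were 0.93 (WT) and 0.98 (*wlim2a-1*). *FOX1*, which encodes the oxidase that makes indole-3-carbonyl nitrile, had 0.47 (mock) and 175 FPKM (flg22) in WT, and 13.5 and 299 in *wlim2a-1*. The glutathione transferase gene *GSTF6* had 35.3, 660, 126 and 1029 FPKM, and *GSTU4* had 2.83, 12.7, 7.89 and 51.0. Both, like *FOX1*, were past 2-fold in mock toward *wlim2a-1*, and of the list only *GSTU4* was so after flg22, with a log2 difference of 1.92. Of all compared genes, 4.48% (mock) and 1.16% (flg22) were higher in *wlim2a-1*. The response to flg22 was lower in *wlim2a-1* by at least 1 on the log2 scale for 2 of the 10, and higher for 0. These were *FOX1* at −2.53 and *GSTF6* at −1.16. Of all compared genes, 3.7% had such a lower response and 1.46% a higher one. *CYP83B1*, which directs indole-3-acetaldoxime to glucosinolates, had 148, 343, 198 and 514 FPKM. The genes for the preceding step from tryptophan, *CYP79B2* and *CYP79B3*, did not pass 2-fold in any comparison. *CYP79B2* had 26.7, 49.8, 39.6 and 78.4 FPKM. Its log2 differences with flg22, 0.88 (WT) and 0.97 (*wlim2a-1*), lay just under the limit. *CYP79B3* had 52.5, 63.8, 53.8 and 64.3 FPKM, with smaller differences of 0.28 and 0.25.

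Of 7 regulators, 4 (WT) and 5 (*wlim2a-1*) were at least 2-fold higher with flg22, where 4.47% and 5.53% of all compared genes were. *WRKY33*, which encodes the factor known to activate *PAD3*, had 10.7 (mock) and 171 FPKM (flg22) in WT, and 24.9 and 159 in *wlim2a-1*. Its log2 difference from WT in *wlim2a-1* was 1.14 in mock and −0.10 with flg22, so that its response was lower in *wlim2a-1*, at −1.24. A response lower by at least 1 was found for 1 of the 7 regulators and for 3.7% of all compared genes. *MYB51* also lay close in the genotypes after flg22, with 136 FPKM in WT and 152 in *wlim2a-1*. *MYB122* was the regulator that passed 2-fold between the genotypes after flg22, from 1.13 FPKM in WT to 3.32 in *wlim2a-1*. Of all compared genes, 1.16% were higher in this comparison. The exporter genes differed from each other. *PEN3* had 113, 515, 265 and 600 FPKM, and *ABCG40* had 1.35, 3.18, 1.81 and 10.4, with a log2 difference of 1.44 between the genotypes after flg22. The response difference was −1.004 for *PEN3* and 1.18 for *ABCG40*, each past the limit, as 3.7% of all compared genes were downward and 1.46% upward.

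**Figure D4:**
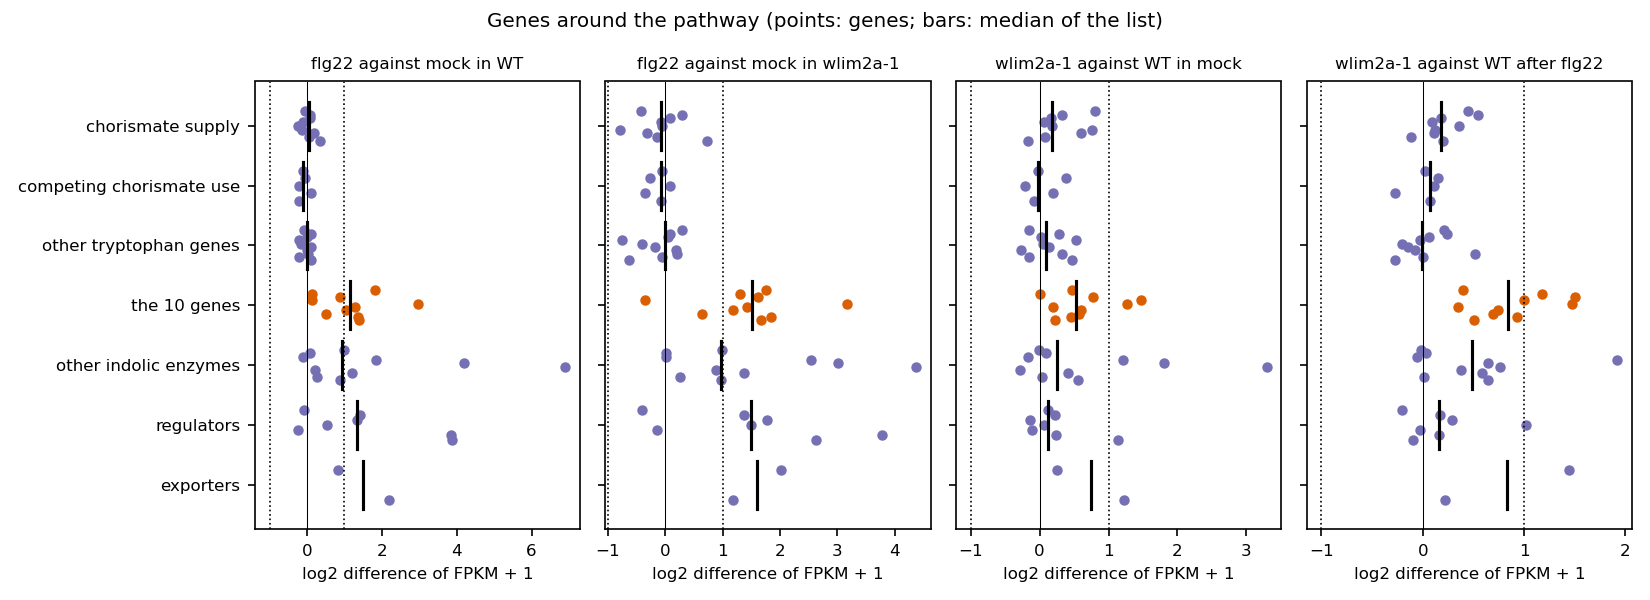
Log2 difference of FPKM + 1 (horizontal axis) of the genes of each pathway list (rows) in the same comparisons. Points are genes, orange for the 10 genes and violet for the others, black bars are list medians and dotted lines mark 2-fold. No gene of chorismate supply, competing chorismate use or the other tryptophan genes passes a dotted line.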

How the data were processed

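RNA-Seq of 12 samples was read from 1 table. The submitters' processing notes and the study's methods name quality trimming, FastQC v0.11.5, TopHat v2.1.1 with the TAIR10 genome, Cufflinks, limma and Cuffdiff v2.2.1 with quartile normalization. The authors combined the 3 replicates into 1 FPKM value for each condition, used here as deposited. The methods tie FPKM to Cufflinks. Whether it or Cuffdiff wrote the deposited table, the annotation version and the depth obtained were not given in the sources used here. Low FPKM values showed no steps from which reads could be recovered, so the depth is unknown. Since values were pooled, no test was run.

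A pseudocount of 1, an FPKM minimum of 1 in at least 1 condition and a 2-fold limit were used, with Python 3.11.15, numpy 2.4.6 and pandas 2.3.3. Counting was tested on simulated data. Symbols came from RefSeq TAIR10.1, in which 26703 loci (97.6%) were found. Positions and sequences are not reported, and promoter motifs and protein identities were not analysed here. The 10 genes, the lists and the limits were chosen with earlier results of these data known. Named genes were the 10 genes, close copies, reference genes, pathway genes past 2-fold (up to 4 per list) and the 3 genes nearest in profile. Exceptions, chosen after their values were seen, were *ASA2*, *PAT1*, *DHS1*, *CM1*, *ICS1*, *CYP79B2*, *CYP79B3*, *GGP3*, *CYP82C3*, *CYP71A22*, *CYP71B7*, *CYP82C4*, *RBCS1A* and *LHCB1.3*. Alternatives were other pseudocounts, minimums, folds and scalings, and sums over gene copies.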

Additional observations from a re-analysis of the deposited data

Results flagged for a closer look

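*CYP71A13* moved in opposite directions with flg22, by a log2 difference of 0.12 in WT and −0.35 in *wlim2a-1*, so that its response was −0.47 in *wlim2a-1* relative to WT. The difference was not tested, since each condition had 1 combined value, and all 4 values were under 3 FPKM. The sum with *CYP71A12* rose by 2.60 in *wlim2a-1*, but *CYP71A12* made up 33.0 of its 34.3 FPKM with flg22. The sum therefore gives no direction for *CYP71A13* itself.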

How the results depend on the processing

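No paired analysis was possible because the replicates were combined before deposition, and for the same reason no replicate could be left out. Counts of the 10 genes at least 2-fold higher were 6 (WT) and 8 (*wlim2a-1*) for flg22 against mock, 2 (mock) and 3 (flg22) for genotype, and 1 for the response. At 4-fold these became 1, 1, 0, 0 and 0, where 1.59%, 1.79%, 0.968%, 0.305% and 0.393% of all genes were higher. At 1.5-fold the last 3 became 4, 7 and 2, where 12.5%, 2.93% and 5.77% of all genes were higher. With a pseudocount of 5 the count in mock was 0 and that for the response 0, where 2.04% and 0.538% of all genes were higher. The median with flg22 in WT was then 0.94. A pseudocount of 0.1 gave 1 gene with a lower response in *wlim2a-1*, *CYP71A13* at −1.12, where 5.8% of all genes had one. It turned the response difference of *CYP71A12* to −0.56. With a minimum of 5 FPKM, 8 genes were left, the count in mock was 1 and that for the response 0. Among all genes with this minimum, 5.28% and 1.41% were higher. The ratio to *ACT2* and *UBQ10* left 2 genes with flg22 in WT and a median of 0.59. Equal sums without AT2G01021 gave 5 genes after flg22 and turned the response difference of *GGP1* to 0.15, which upper quartile scaling turned to 0.032. The mock difference of *CYP82C2*, practically 0, became −0.014 with upper quartiles, −0.0022 with median ratios, −0.0073 with equal sums and −0.023 in the sum with *CYP82C3*, an alternative added after the data were seen. The sum of *CYP71A12* and *CYP71A13*, with flg22 mostly *CYP71A12*, had 2.60 with flg22 in *wlim2a-1* and a response difference of −0.30. Beyond the higher values of *ACT2* and *UBQ10* with flg22, the cause was not tested for the scalings.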

Other observations

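The P450 families to which these genes belong were looked up by symbol after the values were seen. Of the 16 *CYP71A* genes in the table, 11 reached 1 FPKM. Among these *CYP71A12* was the 1 gene at least 2-fold higher with flg22 in WT, as 4.47% of all compared genes were. Between the genotypes after flg22, the median log2 difference of the 11 was 0.42, beside −0.02 for all compared genes. *CYP71A12* was the 1 of them past 2-fold there, as 1.16% of all compared genes were. *CYP71A22* had 12.0 (mock) and 9.96 FPKM (flg22) in WT, and 21.3 and 14.4 in *wlim2a-1*. *CYP71B7* had 86.9, 215, 104 and 233 FPKM, which was more than 2-fold higher with flg22 in each genotype and close between them. *CYP82C4*, which encodes a hydroxylase in the synthesis of iron-chelating coumarins, had 3.12, 6.29, 1.5 and 5.12 FPKM, and its level was not higher in *wlim2a-1* after flg22.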
